A study of Mus musculus with 2 samples.

Results

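The genes described here encode Wnt, bone morphogenetic protein (BMP) and fibroblast growth factor (FGF) signals that shape the growth and identity of thymic epithelium. They are the Wnt ligands Wnt4, Wnt5a, Wnt5b and Wnt10a, the Wnt antagonist receptor Kremen1, the BMP ligands Bmp4 and Bmp2, the BMP and activin antagonist Fst (follistatin), the FGF ligand Fgf7 and the FGF receptor Fgfr2. The 10 genes were taken from a list of names and matched to array probe sets that carry a single gene symbol. All 10 were found, with 11 probe sets, among 19938 genes with 21789 such probe sets. Wnt4 had 2 probe sets and each of the other 9 genes had 1. Probe sets that carry several symbols held 0 of them.

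Wnt ligands bind Frizzled receptors with the co-receptors Lrp5 and Lrp6 and can stabilise β-catenin, which then acts with TCF/LEF factors on transcription. Other Wnt ligands, Wnt5a among them, are known mainly for signals that do not need β-catenin. BMP ligands act through receptor kinases and Smad proteins, and FGF ligands through receptor tyrosine kinases. In the thymus Wnt4 and Bmp4 are known as inducers of Foxn1, the transcription factor that directs thymic epithelial differentiation. Fgf7, made by mesenchyme, is known to drive epithelial growth through the epithelial form of Fgfr2.

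RNA of cortical thymic epithelial cells (cTECs) was measured on 2 Affymetrix arrays, 1 for each genotype, in NOD mice at day 7. The Tg array held cells from 7 Aire transgenic mice, in which Aire, the regulator that medullary epithelium uses to transcribe genes of peripheral tissues, was placed by a semi-knockin under the promoter of β5t, the cortical thymoproteasome subunit encoded by Psmb11. The non-Tg array held cells from 5 mice whose genotype is labelled only as control. The mouse numbers come from the source labels and were read as the animals pooled for each array. NOD is a strain that develops autoimmune diabetes. Day 7 is given without saying from which event it was counted, and how the cells were sorted is not stated in the labels. The question for these genes was whether cTECs that express Aire differed from control cTECs in the epithelial signals they carry.

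Levels below are the deposited log2 values, and every log2 ratio is Tg minus non-Tg. Each group has a single array, so replicate error is unknown and no p-value is given. In bulk RNA of this kind, fewer cells of a type and less RNA per cell cannot be told apart. Values under 4.80, the 25th percentile over both arrays, were raised to that floor before a ratio was taken. A gene passed the filter if either of its values reached that array's median probe set (5.43 on the Tg array, 5.45 on the other), as 11422 of the 19938 genes did. Genes past the filter that were at least 2-fold apart were counted, which takes the place of a test. As a measure of scale, the SD of a single probe set's log2 ratio was 0.302, estimated from 658 genes whose ratio could be read from 2 probe sets past the filter. Probe sets of a gene share the RNA, so animals, pools and amplification add nothing to this SD.

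The label of the Tg array could be checked on the transgene. Aire was at 7.33 in Tg against 6.06 in non-Tg, giving a log2 ratio of 1.28. Its promoter's own gene, Psmb11, was at 10.51 and 10.15, giving a log2 ratio of 0.37. Among the 500 genes closest to Psmb11 in mean level, the 5th to 95th percentile ran from -0.35 to 0.36. All 12 cortical marker genes passed the filter, as did 57.3% of all genes. Of the measured markers of other cells, 9 of 10 medullary and 10 of 11 thymocyte genes passed too. Passing the filter therefore does not by itself mark the cells as cortical. None of the 12 was 2-fold apart, where 1.17% of all genes past the filter were.

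Sequence upstream of the annotated start was given for 5 of the 10 genes (Wnt4, Wnt5b, Bmp4, Fgfr2 and Fgf7), in 7 windows of 250 bases, from RefSeq on GRCm38.p6. Wnt5a, Wnt10a, Kremen1, Bmp2 and Fst were not in the table. The windows were searched on both strands for CTTTGAT, the form of the TCF/LEF motif through which β-catenin acts, for the palindrome GGCGCC, a GC-rich element of BMP Smads, and for GACGC, the core of the Foxn1 motif. The 3 windows shown are those that held either of the first 2 motifs, in capitals, and that of Fgfr2, the receptor among these genes, which held none of the 3.
Wnt4 (chr4:137277385-137277634, plus strand): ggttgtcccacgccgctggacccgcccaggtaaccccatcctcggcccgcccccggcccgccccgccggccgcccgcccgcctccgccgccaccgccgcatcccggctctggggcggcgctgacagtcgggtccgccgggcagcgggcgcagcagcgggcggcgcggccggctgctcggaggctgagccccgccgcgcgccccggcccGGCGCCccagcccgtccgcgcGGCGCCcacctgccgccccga
Wnt5b, most 3′ of 3 starts (chr6:119449387-119449636, minus strand): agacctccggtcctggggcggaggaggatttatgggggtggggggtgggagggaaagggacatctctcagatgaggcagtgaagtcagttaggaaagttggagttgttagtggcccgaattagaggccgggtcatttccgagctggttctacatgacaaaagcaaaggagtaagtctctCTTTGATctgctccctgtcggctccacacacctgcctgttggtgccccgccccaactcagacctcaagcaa
Fgfr2 (chr7:130266809-130267058, minus strand): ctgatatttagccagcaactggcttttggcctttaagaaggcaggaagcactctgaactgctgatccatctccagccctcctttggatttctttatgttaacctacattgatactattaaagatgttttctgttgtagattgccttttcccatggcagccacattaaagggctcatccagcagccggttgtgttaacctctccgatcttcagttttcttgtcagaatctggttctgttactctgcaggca
The Wnt5b window held CTTTGAT once, its first base 71 bases before the start, and 3.21% of all 32851 windows of this length held that motif on either strand. The Wnt4 window held GGCGCC at 2 places, against 9.59% of all windows with at least 1, and its GC content was 85.2%, against a median of 52.4% over all windows. GACGC was found in 1 of the 7 windows, the first of Wnt5b, and in 22.6% of all windows. The Fgfr2 window had a GC content of 44.0%. These matches describe letters in a window, and the arrays do not measure binding.

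Across the 10 genes the arrays lay close together. None was 2-fold apart: 5 of the 10 passed the filter, and 0 of these 5 were counted as higher or lower, where 1.17% of all 11422 genes past the filter were. At that share a count of 0 among 5 is no result about these genes. Fgf7 lay under the floor on both arrays and has no ratio. The log2 ratios of the other 9 genes ranged from -0.33 for Bmp2 to 0.42 for Kremen1, with a median of -0.10, beside -0.01 over the 16483 genes with at least 1 value above the floor. The ratio was above 0 for 3 of the 9 and below 0 for 6. For 7 of the 9 it was no larger than the probe-set SD of 0.302, and the exceptions were Kremen1 and Bmp2. That SD comes from probe sets past the filter, which Wnt5a, Wnt5b, Bmp4 and Bmp2 did not pass. Among the 500 genes closest in mean level to each of these, the SD of ratios was 0.146, 0.233, 0.188 and 0.224. By that scale Bmp4, at -0.193, lay just beyond its SD, as did Bmp2. The 5 genes past the filter were Wnt4, Wnt10a, Kremen1, Fst and Fgfr2.

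**Figure D1:**
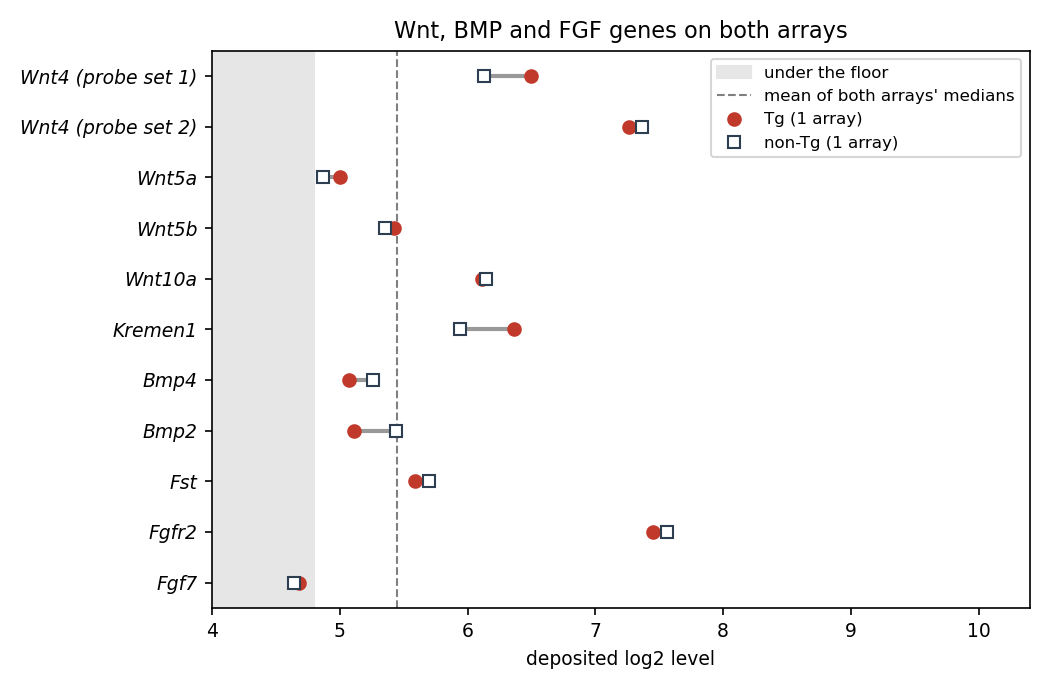
Deposited log2 level (horizontal axis) of each of the 11 probe sets of the 10 genes on the Tg array (filled circles) and the non-Tg array (open squares), with a line joining both values, the region under the floor of 4.80 shaded and the mean of both arrays' medians dashed. The values of each probe set lie close together, the widest gaps being those of Kremen1 (6.36 and 5.94), the first Wnt4 probe set (6.49 and 6.13) and Bmp2 (5.11 and 5.44).

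Among the Wnt ligands, Wnt4, a ligand of thymic epithelium, gave readings that differed in sign between its probe sets. The probe set with the higher values, used for the gene, read 7.26 in Tg against 7.37 in non-Tg, giving a log2 ratio of -0.10. The other read 6.49 in Tg against 6.13 in non-Tg, giving a log2 ratio of 0.37. Both probe sets passed the filter on both arrays. The direction of Wnt4 therefore depends on which probe set is read, and averaging them gave a log2 ratio of 0.13. Neither reading came near 2-fold.

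Wnt10a, a ligand known from skin appendages and teeth, was past the filter and almost equal on both arrays. It read 6.11 in Tg against 6.15 in non-Tg, giving a log2 ratio of -0.04. Wnt5b and Wnt5a, close relatives that signal mainly without β-catenin, did not pass the filter. Wnt5b read 5.42 in Tg against 5.35 in non-Tg, just under the median of each array, with a log2 ratio of 0.07. Wnt5a read 5.00 in Tg against 4.87 in non-Tg, giving a log2 ratio of 0.13. For both, the values lie near the lower end of the scale, where log2 ratios are compressed, and a change in a transcript that stays near background was not detectable.

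Kremen1, which binds Dickkopf proteins and removes the co-receptor Lrp6 from the cell surface, had the widest ratio of the 10 genes. Loss of Kremen1 is known to disturb the architecture of the thymic epithelium. It was at 6.36 in Tg against 5.94 in non-Tg, giving a log2 ratio of 0.42 or 1.34-fold. Among the 500 genes closest to it in mean level, the 5th to 95th percentile of log2 ratios ran from -0.47 to 0.56. Kremen1 thus lay above the probe-set SD and inside the range of most genes of its level. It has a single probe set, so no second reading was at hand. Its paralog Kremen2, which also binds Dickkopf proteins, was at 5.73 in Tg against 5.75 in non-Tg, giving a log2 ratio of -0.02.

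Neither Bmp4 nor Bmp2, both secreted BMP ligands, passed the filter. Bmp4, the ligand associated with Foxn1 induction, was at 5.07 in Tg against 5.26 in non-Tg, giving a log2 ratio of -0.19. Bmp2 was at 5.11 in Tg against 5.44 in non-Tg, giving a log2 ratio of -0.33 or 1.26-fold lower. Its non-Tg value lay 0.02 under the median of that array, so Bmp2 is the gene closest to the filter from below together with Wnt5b. The 5th to 95th percentile of its 500 level neighbours ran from -0.35 to 0.32, which holds the Bmp2 ratio close to its lower edge. Fst, whose product binds activin and some BMPs and keeps them from their receptors, passed the filter. It was at 5.59 in Tg against 5.70 in non-Tg, giving a log2 ratio of -0.11. Of these 3 genes, only Bmp2 had a ratio wider than the probe-set SD, which comes from brighter probe sets. The Bmp4 ratio was just wider than the SD of its own level neighbours, 0.188.

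Fgfr2, the receptor for Fgf7 and Fgf10, was well past the filter on both arrays and nearly equal. It was at 7.45 in Tg against 7.56 in non-Tg, giving a log2 ratio of -0.11 or 1.08-fold lower. Whether its single probe set separates the epithelial from the mesenchymal splice form was not examined here. Fgf7 lay under the floor on both arrays, at 4.68 in Tg against 4.64 in non-Tg, so no ratio can be given for it. Fgf7 transcripts were thus not detectable above the low end of the scale on either array.

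**Figure D2:**
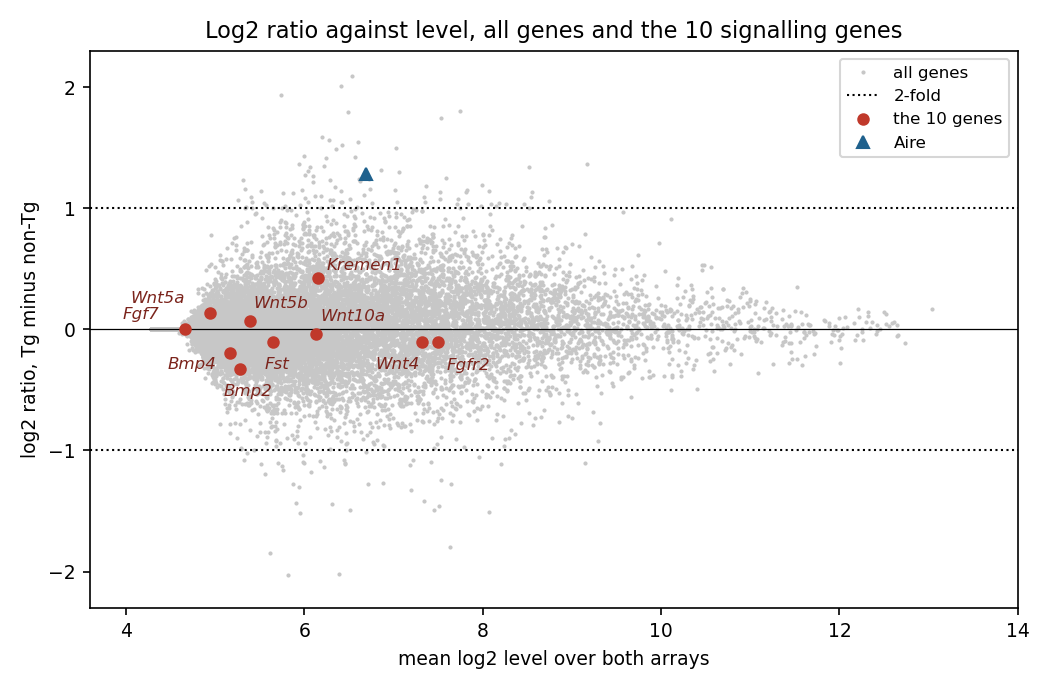
Log2 ratio, Tg minus non-Tg (vertical axis), against mean log2 level over both arrays (horizontal axis) for all 19938 genes (grey), the 10 signalling genes (red, named) and Aire (triangle), with dotted lines at 2-fold. The genes lie between -0.33 and 0.42, inside the cloud of genes of like level, while Aire lies at 1.28.

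Placed among their 500 level neighbours, 9 of the 9 genes with a ratio lay within the 5th to 95th percentile. The SD of the neighbours' ratios was 0.355 for Wnt4 and 0.374 for Fgfr2, and 0.146 for Wnt5a, which reads close to the floor. The spread was thus narrower among genes as dim as Wnt5a, whose values are bounded from below.

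The other genes of these pathways were read in 13 lists ordered by role, with 185 distinct genes, of which 181 were measured and 115 passed the filter. None of the 115 was 2-fold higher and none 2-fold lower (0 and 0, where 0.797% and 0.376% of all genes past the filter were). At 1.5-fold, 4 of the 115 stood apart, or 3.48%, against 7.86% of all genes past the filter (4.74% higher and 3.13% lower). The 4 were Fgf13 at a log2 ratio of 0.59, and Etv1, Fstl3 and Gsk3a at -0.80, -0.66 and -0.63. Of the 10 genes, past the filter or not, 0 were 1.5-fold apart. Fgf13 belongs to the intracellular FGF homologues, which are not secreted, Etv1 is a transcription factor downstream of FGF signals, Fstl3 is a relative of follistatin and Gsk3a is a kinase that marks β-catenin for destruction. The Etv1 probe set used read 5.24 in Tg against 6.04 in non-Tg and passed the filter on the non-Tg array only. The second Etv1 probe set, below the floor on both arrays, read 4.55 in Tg against 4.48 in non-Tg. The median log2 ratio of the 115 was 0.00 to 2 decimals, beside 0.01 for all genes past the filter.

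**Figure D3:**
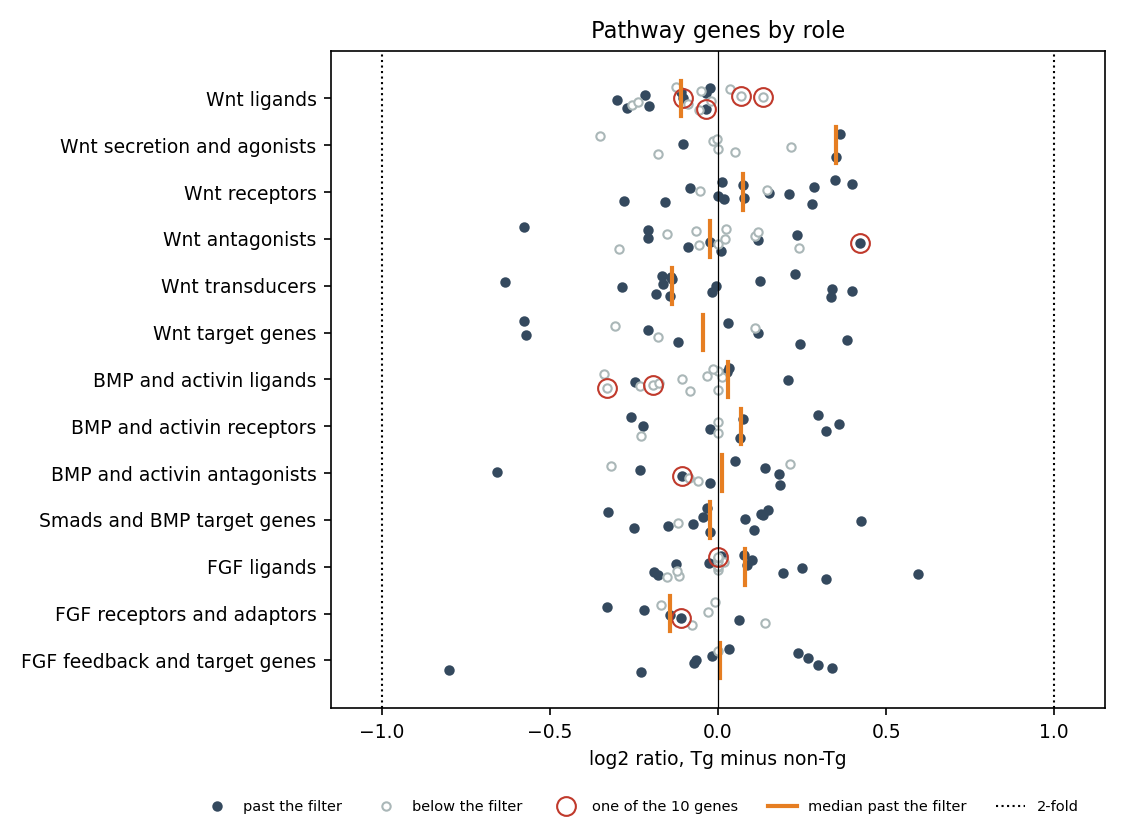
Log2 ratio, Tg minus non-Tg (horizontal axis), of every measured gene in the 13 pathway lists (rows), filled if past the filter and open if not, with the 10 genes ringed, each list's median past the filter as a bar and 2-fold as dotted lines. No gene reaches 2-fold, and the 9 Wnt ligands past the filter all lie below 0, by the probe set of Wnt4 with the higher values. Wnt6, Wnt10b and Wnt11 among them passed on the non-Tg array only.

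Wnt ligands past the filter, 9 of 19 measured, all read lower in Tg by small amounts, with log2 ratios from -0.30 to -0.02 and a median of -0.11. Beside Wnt4 and Wnt10a they were Wnt3a at -0.30, Wnt10b at -0.27, Wnt6 at -0.22, Wnt11 at -0.20, Wnt7b at -0.11, Wnt7a at -0.04 and Wnt9a at -0.02. Among the 7915 genes past the filter in the same span of mean levels, 50.7% had ratios below 0 and the median was -0.01. Each of the 9 ratios was smaller than the probe-set SD of 0.302. Wnt6, Wnt10b and Wnt11 reached the median on the non-Tg array only. A gene that passes there alone must read lower in Tg, so the signs of these ligands say nothing further. The count below 0 was 9 of 9 under quantile normalization and under median centring too, and 8 of 9 when probe sets of a gene were averaged, since Wnt4 then lay above 0. Of all 19 ligands, 16 lay below 0 and 3 above, Wnt5a and Wnt5b among the 3.

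Of 10 measured genes for Wnt secretion and Wnt agonists, 3 passed the filter, and 4 of the 10 lay above 0 and 5 below, with a median of 0.00 to 2 decimals. Wls, the carrier that escorts Wnt proteins to the surface, was at 8.58 in Tg against 8.21 in non-Tg, and Lgr4, a receptor for R-spondins, at 6.71 and 6.36, with log2 ratios of 0.36 and 0.35. The third gene past the filter, Rspo1, an R-spondin, had -0.11. Of the 14 Wnt receptor genes past the filter, 10 had ratios above 0 and 3 below, with a range from -0.28 to 0.40 and a median of 0.08. Lrp6, the co-receptor that Kremen1 removes, was at 8.72 in Tg against 8.44 in non-Tg (log2 ratio 0.29), and Fzd7 at 7.85 and 7.69 (0.15). Fzd5 had the same value, 6.25, on both arrays. In the same span of levels, 48.1% of 8465 genes had ratios below 0.

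Antagonists of Wnt signalling split evenly, with 4 of 9 past the filter above 0 and 5 below, and Kremen1 at the upper end. Sfrp1, a secreted Wnt binder, had a log2 ratio of 0.23 and Sost, a secreted Lrp5 and Lrp6 inhibitor, -0.21. The lowest ratio, -0.58, was that of Znrf3, a ligase that clears Frizzled receptors and is itself a Wnt target. Znrf3 read 5.00 in Tg against 5.57 in non-Tg and passed the filter on the non-Tg array only. Among transducers, 5 of 15 lay above 0 and 10 below, with a median of -0.14. Csnk1a1, a kinase of the destruction complex, had a log2 ratio of 0.40 and Ctnnb1, which encodes β-catenin, 0.34. Of the 8 target genes past the filter, 4 lay above 0 and 4 below. Axin2, the target most used as a readout of β-catenin activity, was at 6.59 in Tg against 6.35 in non-Tg (0.24), while Myc was at 7.62 and 8.18 (-0.57) and Cd44 at 6.99 and 6.60 (0.38). Target genes thus held ratios of both signs, none of them 2-fold.

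In the BMP and activin pathway, 4 of 16 measured ligands passed the filter, 3 of them above 0. Bmp7 was at 7.26 in Tg against 7.05 in non-Tg (log2 ratio 0.21) and Bmp6 at 5.80 and 6.04 (-0.25). The receptors Bmpr2 and Bmpr1a had log2 ratios of 0.07 and 0.36, and 5 of 8 receptor genes past the filter lay above 0. Antagonists past the filter lay 4 above and 4 below 0. Nbl1, among those above, passed on the Tg array only. Fst had relatives on both sides, with Fstl1 at a log2 ratio of 0.18 and Fstl3, at 6.14 in Tg against 6.79 in non-Tg, at -0.66. Twsg1, a secreted BMP binder, had 0.05. Of the 13 Smad and BMP target genes past the filter, 6 lay above 0 and 7 below. Their log2 ratios ran from -0.33 for Smad6, which passed on the non-Tg array only, to 0.43 for Smad1. Smad2 and Smad4 had log2 ratios of 0.08 and 0.13, and the direct BMP targets Id1, Id2 and Id3 had -0.02, 0.11 and -0.25. The Id genes, like Bmp2 and Bmp4, were thus within 0.33 of equality on the log2 scale.

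Of 22 measured genes on the FGF ligand list, 12 passed the filter, 8 with ratios above 0 and 4 below, and their median was 0.08. These include Fgf12 and Fgf14, which like Fgf13 are intracellular homologues and not secreted ligands. Fgf5, above 0, passed on the Tg array only, and Fgf12 and Fgf22, below 0, on the non-Tg array only. The signs of Fgf5, Fgf12 and Fgf22 therefore say little further. In the same span of levels, 49.2% of 9870 genes had ratios below 0. Fgf14 had the highest mean level of the list and a log2 ratio of 0.19, and Fgf8 had 0.01. Fgf10, another ligand of the epithelial form of Fgfr2, did not pass the filter, with values of 4.64 in Tg against 4.95 in non-Tg. Other paralogs of Fgf7 past the filter ranged from -0.19 for Fgf15 to 0.59 for Fgf13. Among 5 receptor and adaptor genes past the filter, 1 lay above 0 and 4 below, with Fgfr1 at a log2 ratio of 0.06, Fgfr3 at -0.14 and the adaptor gene Frs3 at -0.33. Fgfr1, the 1 above 0, passed on the Tg array only, so its sign says little further. In the same span of levels, 50.6% of 8385 genes had ratios below 0. Genes that FGF signals induce, several of which feed back on the pathway, lay 5 above and 5 below 0. Spred2 and Spred1, inhibitors of the Ras to ERK step, had log2 ratios of 0.27 and -0.07, and the second Spred2 probe set read -0.22. Etv4 and Etv5, transcription factors induced by FGF, had 0.34 and 0.30, and the phosphatase gene Dusp6 had -0.23. The list therefore held no common direction.

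Markers of the cells that make or receive these signals were read on the same arrays, since several of the 10 genes are known from mesenchyme. All 12 cortical epithelial markers had ratios above 0, from 0.02 to 0.57 with a median of 0.14, among them Krt8 at 0.05 and Ccl25 at 0.06. Of all genes past the filter, 50.6% lay above 0, and 55.8% with the filter at the 75th percentile. The share among genes as bright as these markers was not taken. Foxn1 was at 7.45 in Tg against 7.38 in non-Tg, giving a log2 ratio of 0.07. Of 10 measured medullary markers 9 passed the filter, 5 above 0 and 4 below, with Krt5 at 0.34 and Trp63 at -0.12. Fibroblast and mesenchyme markers, of which 8 of 11 passed the filter, lay 4 above and 4 below 0. Twist1, among those below, passed on the non-Tg array only. Dcn had a log2 ratio of 0.28, and Thy1, which thymocytes express as well, was at 8.89 and 9.57. The mean log2 level of the 11 mesenchyme markers was 6.33 in Tg against 6.44 in non-Tg.

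RNA of blood-derived and endothelial cells was on both arrays too. Of 11 measured thymocyte markers 10 passed the filter, 3 above 0 and 7 below. The mean log2 level over the list was 8.15 in Tg against 8.23 in non-Tg. Rag1 was at 10.89 and 10.96 and Cd3g at 9.94 and 10.23. The log2 ratios above 0 were those of Cd4 (0.18), Cd8a (0.10) and Themis (0.21). Lef1, a Wnt effector that thymocytes also express, was at 7.28 in Tg against 7.41 in non-Tg. Endothelial markers had mean levels of 6.25 and 6.25, with Cdh5 at a log2 ratio of -0.16 and Pecam1 at 0.48. Of 10 macrophage and dendritic cell markers 3 passed the filter, Ptprc, Tyrobp and C1qa, each below 0. C1qa passed on the non-Tg array only. Over all 10, 5 lay above 0, 3 below and 2 at 0, with Lyz2 at 0.36 and Cd68 at 0.33, neither past the filter. The marker lists held 0 genes that were 2-fold apart, where 1.17% of all genes past the filter were. The part of these cells in the ratios of the 10 genes was not tested.

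**Figure D4:**
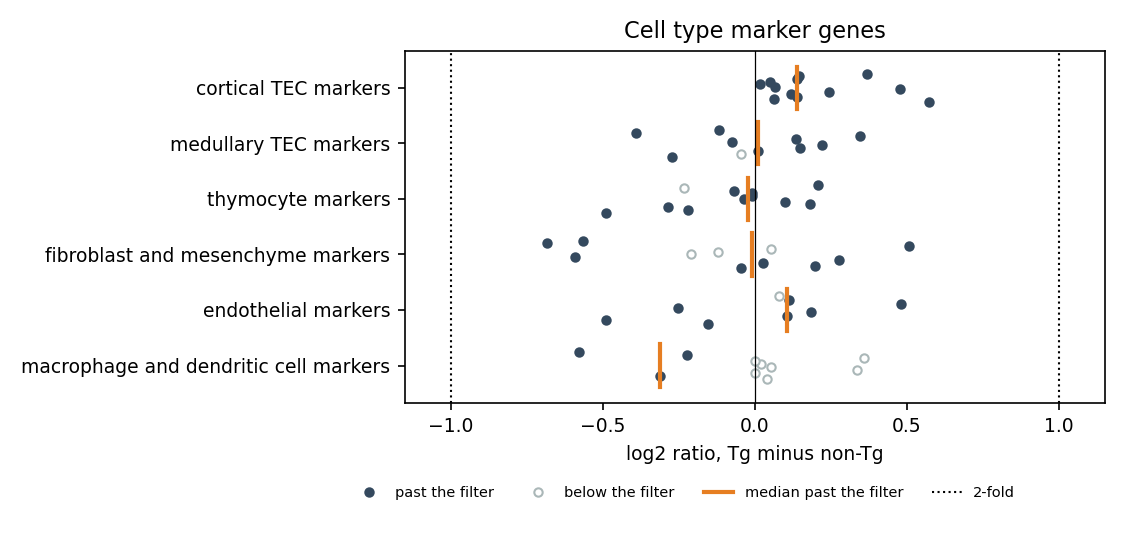
Log2 ratio, Tg minus non-Tg (horizontal axis), of measured marker genes of 6 cell types (rows), filled if past the filter and open if not, with each list's median past the filter as a bar and 2-fold as dotted lines. The 12 cortical markers lie between 0.02 and 0.57, and the other lists hold ratios of both signs among their measured genes.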

How the data were processed

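Total RNA of cTECs from Tg and non-Tg mice was amplified, labelled with biotin and hybridised, per the labels' protocols, with 1 array per group. The authors deposited log2 values, 1 for each of 28856 probe sets, with a range of 4.22 to 13.7 in Tg and 4.22 to 13.6 in non-Tg. The scale was inferred from that range. The labels name no background correction, normalization or build. The table held 0 columns of other samples. Scan dates were not used, which leaves batches unexamined, and the number of arrays limits the precision.

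Gene symbols came from GEO's platform annotation: 21789 probe sets had 1 symbol, 1621 several and 5446 none. Values were used as deposited. For each gene the probe set with the highest mean over both arrays was taken, and for the 10 genes every probe set is reported. The log2 ratio, floor, filter and 2-fold count were computed as described with the results. The counts were tested on simulated data, with changes added only to brighter genes with 1 probe set. Of the 10 genes only Wnt4 and Fgfr2 lie at such levels, so changes in genes as dim as the others were not covered.

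The 10 genes and all lists were chosen with earlier results of these data known. Text names the 10 genes, Aire, Psmb11, the highest-level genes of each list and paralogs past the filter. Axin2, Lef1, Foxn1, Znrf3, Fzd5, Fgf10, Rspo1, Id1, Id2, Id3, Etv1, Etv4, Etv5, Dusp6, Gsk3a and C1qa were named after their values were seen. So were Lyz2, Cd68, Cd4, Cd8a, Themis, Smad1, Smad6, Spry2, Nbl1 and Twist1. Alternatives varied the probe-set rule, floor, filter, scaling and fold. Python 3.11.15, numpy 2.4.6, pandas 2.3.3 and matplotlib 3.10.9 were used.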

Additional observations from a re-analysis of the deposited data

How the results depend on the processing

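The count of 0 among the 10 genes was 0 under all 7 alternatives, a 1.5-fold threshold included. Of the 40 alternative log2 ratios of single genes, 40 moved by less than the probe-set SD, and 1 changed sign, that of Wnt4, at 0.13 with its probe sets averaged. Part of this outcome was fixed in advance. Averaging could move only Wnt4, since each of the other 9 genes has 1 probe set. Removing the floor could move only Fgf7, since no other of the 10 genes lay under it. Kremen1 ranged from 0.41 to 0.44 and Bmp2 from -0.33 to -0.31. With no filter 10 of the 10 genes are counted as past it, and with the 75th percentile 2. At 1.5-fold, 541 genes were higher and 357 lower over all genes past the filter (91 and 43 at 2-fold), and of the pathway genes 1 was higher and 3 lower (0 and 0). With the 75th percentile, which leaves 41 of the 115 pathway genes, the medians of 4 lists turned from below to above 0: transducers from -0.14 to 0.18, Wnt antagonists from -0.02 to 0.23 (1 gene left), Wnt targets from -0.04 to 0.24 (3 left) and Smads and BMP targets from -0.02 to 0.13 (5 left). The receptor median went from 0.08 to 0.28, with 7 of 7 above 0, and that of all pathway genes from 0.00 to 0.21. A gene can enter at this filter through the array where it reads higher, which shapes these medians too. The median of the Wnt secretion list was 0.00 to 2 decimals without a filter, which adds genes. No paired analysis was possible because each group has 1 array. Values bounded from below limit the reading of dim genes, and the single array per group leaves replicate error unknown.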

Other observations

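Among pathway genes whose values reached the 75th percentile on at least 1 array, 31 of 41 had log2 ratios above 0 and 10 below, with a median of 0.21. That is 75.6% above 0, against 55.8% of the 5625 genes on the array at that filter, whose median was 0.04. At the filter used in the report the shares were 48.7% and 50.6%. Either filter lets a gene in through the array where it reads higher, which by itself shapes the signs counted. At the 75th percentile Axin2, Lgr4, Spry2 and Etv5 were among those that entered on the Tg array only. Fstl3 entered on the non-Tg array only. Of the 10 genes only Wnt4 and Fgfr2 reach the stricter filter, both with ratios below 0 by the probe set used. The difference between the shares was not tested.

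Exactly equal values on both arrays were found for 809 of 28856 probe sets, 2.80%. They included 6 pathway genes (Fzd5, Bmp15, Inha, Fgf4, Fgf17 and Fgf20) and 0 of the 10 genes. For 4 pathway genes 2 probe sets each passed the filter, and 2 of these genes had probe sets that differed in sign, Wnt4 and Spred2.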
